A study of Homo sapiens with 24 samples.

Results

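Expression of 10 core pluripotency genes, POU5F1, NANOG, DPPA4, LIN28A, LIN28B, ZFP42, PRDM14, L1TD1, SALL4 and UTF1, was followed in human embryonic stem cells (hESCs) in which HAR123 had been deleted or replaced. The genes were chosen by name as well known genes of the pluripotent state, and all 10 were found among the 61551 genes used from the count table. HAR123 is a human accelerated region, a conserved stretch of DNA that changed quickly in the human lineage; it lies in an intron of SMG6 and was studied as an enhancer. The cells were H9, an established hESC line, with 4 genotypes: hHAR123 cells carried the unedited human sequence (labelled WT), HAR123-KO cells had both alleles deleted with CRISPR-Cas9, and in cHAR123 and mHAR123 cells the human sequence was replaced by that of the chimpanzee or the mouse. Each genotype was sampled at 2 stages, as untreated hESCs and as neuroectoderm after 5 days in medium with 10% KnockOut serum replacement, Noggin (500 ng/ml), an antagonist of BMP signaling, and SB431542 (10 µM), an inhibitor of the activin and nodal receptors. RNA from 3 libraries per genotype and stage was sequenced, 24 libraries in all. The study used 2 independent clones per genotype without naming the one behind each library, so at least 2 of the 3 libraries of a group share a clone and p-values measure only the spread between these libraries, which may be technical.

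Pluripotency rests on a small circuit of transcription factors, in which POU5F1 (OCT4), NANOG and SOX2 bind many of the same sites and keep one another's genes active. In hESCs this circuit depends on activin and nodal signaling, and blocking that pathway together with BMP signaling lets the cells become neuroectoderm. The other genes have distinct roles around the circuit. SALL4, PRDM14 and ZFP42 (REX1) are zinc finger factors, DPPA4 and UTF1 are chromatin-associated proteins, L1TD1 is an RNA-binding protein descended from a LINE-1 retrotransposon, and LIN28A and LIN28B are RNA-binding proteins that block the maturation of let-7 microRNAs.

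Libraries held 23334732 to 35198684 counts in hESCs and 21022748 to 25978892 counts in neuroectoderm. Levels are given as CPM, a gene's counts scaled to the total counts of its library, and per kilobase of exonic length (RPKM) where genes are compared with each other. A gene was called when edgeR's quasi-likelihood test gave a p under 0.01 after Benjamini-Hochberg adjustment and a log2 fold change above 1 or below -1, and "rose" and "fell" are used of called genes. The summed level of 10 neuroectoderm markers was 1.88 to 2.65 CPM in hESC libraries of any genotype and 608 to 1016 CPM in neuroectoderm libraries, and 6 mesoderm markers summed to at most 4.21 CPM. The 6 endoderm markers summed to 3.94 to 7.79 CPM in hESCs and 47.7 to 55.3 CPM in neuroectoderm, almost all of it CXCR4 (47.5 to 55.3 CPM), with SOX17 at 0 in every neuroectoderm library. Over differentiation of hHAR123 cells CXCR4 rose, and FOXA2 and CER1 fell. The cHAR123 and mHAR123 neuroectoderm libraries are given by the label of their count column. In the gene tables of the study the mean counts of these 2 groups matched the columns of each other, while those of the hESC groups matched their own, so which of the 2 names is right for neuroectoderm cannot be told apart here. In these bulk samples, fewer cells that express a gene and less RNA per cell cannot be told apart either.

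The 250 bases before the start site are shown for the gene with the largest loss over differentiation, NANOG, and for the pair of genes that were called as higher in HAR123-KO than in hHAR123 neuroectoderm, L1TD1 and ZFP42. They come from RefSeq on build GRCh38.p14, at chr12:7789152-7789401, chr1:62194599-62194848 and chr4:187995521-187995770, all on the plus strand, and they hold no exonic base of the counted annotation, in which the NANOG stretch lies inside the gene's span, in an intron. Capitals mark the octamer core bound by POU factors (letters ATGCAA) and the SOX core (letters ACAATG), searched on both strands.
NANOG: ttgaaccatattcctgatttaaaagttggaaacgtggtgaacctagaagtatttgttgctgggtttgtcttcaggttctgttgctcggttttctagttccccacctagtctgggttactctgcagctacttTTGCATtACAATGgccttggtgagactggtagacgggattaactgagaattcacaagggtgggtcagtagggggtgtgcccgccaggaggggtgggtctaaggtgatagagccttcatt
L1TD1: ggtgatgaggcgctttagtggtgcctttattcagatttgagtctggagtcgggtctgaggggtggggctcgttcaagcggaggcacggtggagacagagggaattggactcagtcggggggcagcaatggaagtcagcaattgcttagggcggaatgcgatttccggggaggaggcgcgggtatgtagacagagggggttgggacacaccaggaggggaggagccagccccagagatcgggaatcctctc
ZFP42: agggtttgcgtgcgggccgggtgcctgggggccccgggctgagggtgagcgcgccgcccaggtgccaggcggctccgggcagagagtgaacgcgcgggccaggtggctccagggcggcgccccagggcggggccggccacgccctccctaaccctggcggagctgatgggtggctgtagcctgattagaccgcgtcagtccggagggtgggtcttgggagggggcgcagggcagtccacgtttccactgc
The NANOG stretch held an octamer core on the opposite strand, at positions -119 to -114 from the start site, and a SOX core at -112 to -107, with a single base between them. The octamer core was present in 8.87% and the SOX core in 9.29% of 35114 RefSeq promoter stretches of the same length. Both in the order and orientation seen at NANOG, read on either strand with at most 3 bases between them, were in 5 stretches (0.0142%). Other orders and orientations of the 2 cores were not counted. Neither core was in the L1TD1 or ZFP42 stretch, which held only GC boxes (GGGCGG, in 42.6% of stretches). Of the other genes, DPPA4 had an octamer core at -123 to -118, LIN28B had a SOX core before 1 of its 2 listed start sites, and UTF1 had neither. A match is a run of letters and not a measured binding site. POU5F1, LIN28A, PRDM14 and SALL4 had no entry in the table.

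In hHAR123 hESCs all 10 genes were expressed, and per length their levels spanned 503.7 to 9.93 RPKM. LIN28A led with 503.7 ± 10.3 RPKM (SD, n = 3), followed by POU5F1 with 397 ± 4.67 RPKM and L1TD1 with 217 ± 2.87 RPKM. DPPA4 stood at 94.6 ± 1.72 RPKM, SALL4 at 58.8 ± 0.579 RPKM and ZFP42 at 49.6 ± 1.05 RPKM. The lowest were NANOG with 29.1 ± 0.311, PRDM14 with 27.0 ± 0.368, LIN28B with 24.8 ± 0.369 and UTF1 with 9.93 ± 0.626 RPKM. No 2 neighbors in this order overlapped in mean ± SD. In HAR123-KO hESCs ZFP42 (74.9 ± 1.46 RPKM) stood above SALL4 (60.6 ± 1.22 RPKM), and PRDM14 (29.5 ± 1.07 RPKM) and NANOG (28.1 ± 0.490 RPKM) overlapped. The 10 genes together took 0.500% to 0.534% of the counts of an hESC library.

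**Figure D1:**
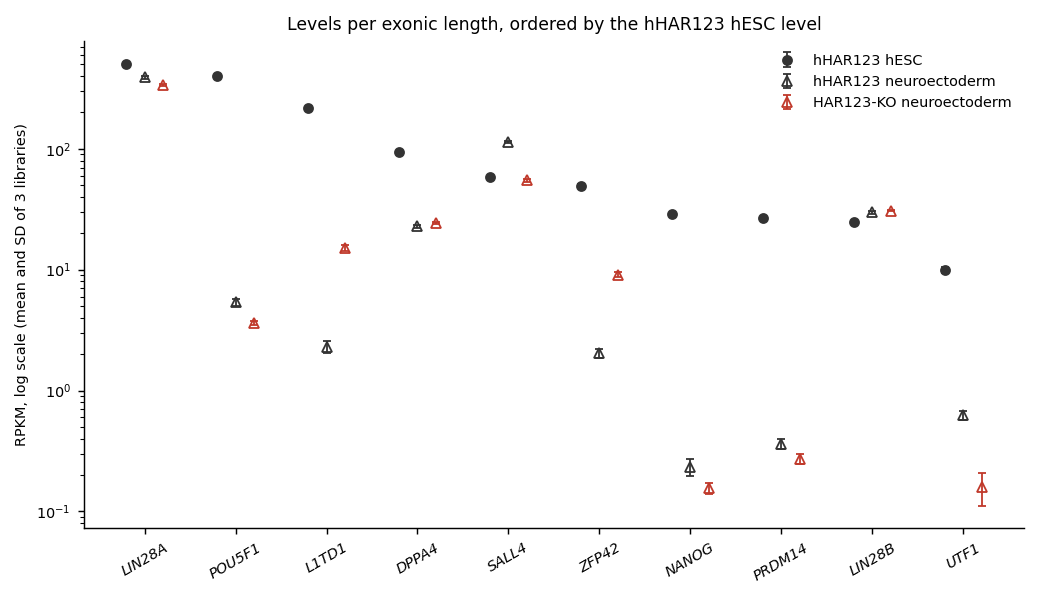
Mean level per exonic length (RPKM, log scale, with the SD of 3 libraries) of the 10 genes, ordered by hHAR123 hESCs (filled circles), with hHAR123 (black triangles) and HAR123-KO neuroectoderm (red triangles). LIN28A stays first at both stages, SALL4 moves from the fifth place to the second, and L1TD1 and ZFP42 lie higher in HAR123-KO than in hHAR123 neuroectoderm.

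Over differentiation of hHAR123 cells, 7 of the 10 genes fell, POU5F1, NANOG, DPPA4, ZFP42, PRDM14, L1TD1 and UTF1, while LIN28A, LIN28B and SALL4 were not called. Of all 22280 genes tested, 21.2% fell in this comparison. The same 7 genes fell in the other genotypes, against 19.1% of genes tested in HAR123-KO, 20.8% in cHAR123 and 20.7% in mHAR123. The 10 genes had a median log2 fold change of -4.59 in hHAR123, beside 0.05 over all genes tested. Their share of library counts was 0.204% to 0.260% in neuroectoderm, and LIN28A took 60.7% to 65.4% of what the 10 genes held there, compared with 37.4% to 39.7% in hESCs.

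**Figure D2:**
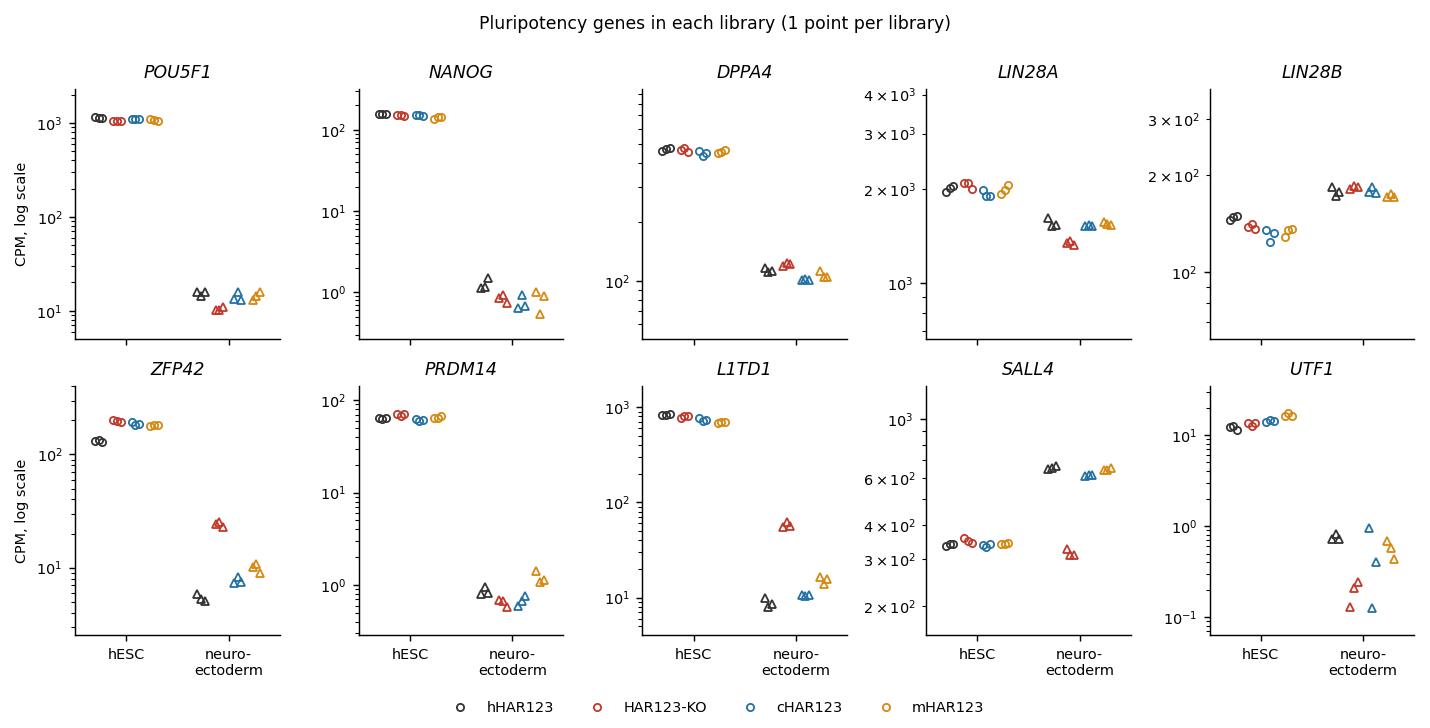
CPM (log scale, whose range differs between panels) of each gene in each of the 24 libraries, with hESC libraries as circles, neuroectoderm libraries as triangles and genotypes by color. For POU5F1, NANOG, DPPA4, ZFP42, PRDM14, L1TD1 and UTF1 every neuroectoderm library lies below every hESC library.

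Both POU5F1 and NANOG, factors of the circuit, fell. POU5F1 (chr6:31164337-31180731, minus strand) was at 1150, 1142 and 1124 CPM in the hHAR123 hESC libraries and at 16.0, 14.3 and 15.9 CPM in neuroectoderm. All neuroectoderm libraries were far below all hESC libraries, and the log2 fold change was -6.50 ± 0.041 (SE), with an adjusted p of 6.86e-51. NANOG (chr12:7787794-7799146, plus strand) went from 157, 159 and 155 CPM to 1.14, 1.16 and 1.49 CPM. This was the largest change of the 10 genes in every genotype, with a log2 fold change of -7.24 ± 0.073 in hHAR123 (adjusted p = 2.04e-44), -7.69 in HAR123-KO, -7.85 in cHAR123 and -7.58 in mHAR123. Only 24 to 35 counts per hHAR123 library remained for NANOG, and between 234 and 378 counts per library of any genotype remained for POU5F1. Both genes have named copies in the table, 7 for POU5F1 and 11 for NANOG. Counts of these copies reached 2359 (POU5F1P3) and 2394 (NANOGP8) in a library, so part of the reads of both genes may have been assigned to a copy. In hHAR123 neuroectoderm NANOGP8 had 24 to 44 counts per library, beside the 24 to 35 of NANOG, so this bears on the NANOG level left there.

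PRDM14 (on chromosome 8), which represses differentiation genes in human pluripotent cells, went from 63.7, 63.3 and 65.0 CPM to 0.809, 0.950 and 0.811 CPM in hHAR123 cells, with 17 to 23 counts per library left and a log2 fold change of -6.50 ± 0.092 (adjusted p = 2.35e-39). ZFP42 (chr4:187995771-188005046), a long used marker of undifferentiated cells, went from 132, 134 and 129 CPM to 5.85, 5.25 and 5.04 CPM, a log2 fold change of -4.91 ± 0.058. L1TD1 (chr1:62194849-62212328), which is needed for self-renewal of hESCs, went from 820, 829 and 842 CPM to 9.99, 8.02 and 8.50 CPM, a log2 fold change of -6.85 ± 0.046. For each of the 3 genes every hESC library was above every neuroectoderm library. UTF1 (chr10:133230217-133231558), a chromatin protein, had 388, 422 and 395 counts in hHAR123 hESCs and 15, 20 and 17 counts in neuroectoderm, a log2 fold change of -4.27 ± 0.15. DPPA4 (chr3:109326144-109337546) fell least of the called genes and kept 24.2% of its hESC level in CPM: 460, 473 and 476 CPM became 117, 111 and 113 CPM, a log2 fold change of -2.34 ± 0.032.

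LIN28A, LIN28B and SALL4 remained expressed in neuroectoderm, and none of them passed the fold threshold. LIN28A (chr1:26410817-26429728) was at 1956, 2015 and 2035 CPM in hHAR123 hESCs and at 1614, 1523 and 1529 CPM in neuroectoderm, lower in every library, with a log2 fold change of -0.66 ± 0.025 that passed the adjusted p (1.43e-24) but not the fold threshold. LIN28B (chr6:104936616-105083332) was at 145, 149 and 149 CPM and then at 184, 173 and 177 CPM. SALL4 (chr20:51782331-51802521) was at 335, 341 and 342 CPM and then at 648, 656 and 666 CPM, so every neuroectoderm library was above every hESC library for both genes. Library scaling by TMM (trimmed mean of M values), used in all tests, puts the median log2 fold change of all genes at 0.05 in hHAR123, while scaling by total counts alone puts it at 0.34. On the TMM scale the log2 fold change was -0.02 ± 0.033 for LIN28B (adjusted p = 0.499) and 0.66 ± 0.028 for SALL4, and on the total count scale 0.27 and 0.95, so the direction of LIN28B depended on the scaling. LIN28A was lower on both scales (-0.66 and -0.36), and the 7 called genes were lower by more than the threshold on both. With total counts as the only scaling, 6948 genes rose and 3666 fell in hHAR123, beside 5491 and 4731 with TMM.

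Per length, the order of the 10 genes in neuroectoderm differed from that in hESCs. In hHAR123 neuroectoderm LIN28A (391 ± 12.9 RPKM) and SALL4 (114 ± 1.52 RPKM) led, followed by LIN28B (29.9 ± 0.920 RPKM) and DPPA4 (22.9 ± 0.574 RPKM). POU5F1, second in hESCs, stood at 5.37 ± 0.325 RPKM, and L1TD1 (2.31 ± 0.268 RPKM) and ZFP42 (2.03 ± 0.159 RPKM) overlapped in mean ± SD. UTF1 (0.622 ± 0.0510 RPKM), PRDM14 (0.362 ± 0.0343 RPKM) and NANOG (0.234 ± 0.0370 RPKM) came last. In HAR123-KO neuroectoderm L1TD1 (15.1 ± 0.834 RPKM) and ZFP42 (9.10 ± 0.464 RPKM) stood above POU5F1 (3.63 ± 0.165 RPKM), and UTF1 (0.160 ± 0.0488 RPKM) and NANOG (0.155 ± 0.0171 RPKM) overlapped.

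**Figure D3:**
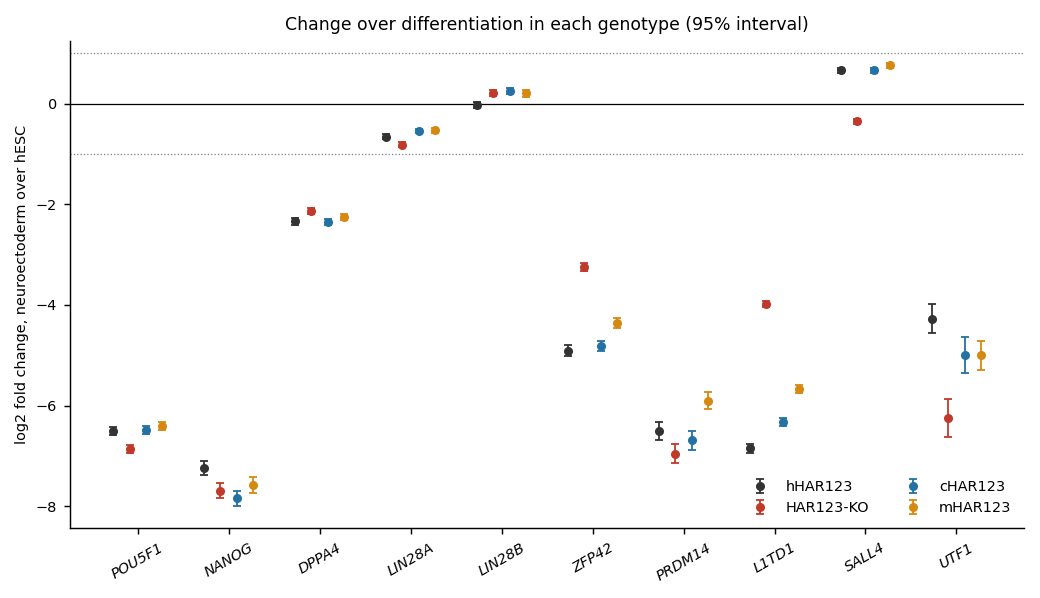
log2 fold change from hESCs to neuroectoderm of each gene in each genotype, with 95% intervals and dotted lines at the fold threshold. HAR123-KO (red) lies above the other genotypes for ZFP42 and L1TD1, below them for UTF1, and on the other side of 0 for SALL4.

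The size of the change over differentiation spread widest over the genotypes for L1TD1, UTF1, ZFP42, SALL4 and PRDM14. L1TD1 fell 116-fold in hHAR123 and 15.8-fold in HAR123-KO, with 80.1-fold in cHAR123 and 51.1-fold in mHAR123. ZFP42 fell 30.02-fold in hHAR123, 9.45-fold in HAR123-KO, 28.2-fold in cHAR123 and 20.5-fold in mHAR123. UTF1 fell 19.3-fold in hHAR123 and 75.8-fold in HAR123-KO, where the neuroectoderm count was at most 6. SALL4 was higher in neuroectoderm at the adjusted p alone in hHAR123 (0.66), cHAR123 (0.66) and mHAR123 (0.76) and lower in HAR123-KO (-0.35, adjusted p = 1.44e-18), on log2 scale. PRDM14 fell least in mHAR123, with a log2 fold change of -5.91, and furthest in HAR123-KO, with -6.95. Only 26 to 37 and 14 to 16 counts per neuroectoderm library were left in these groups, so the spread of PRDM14 is poorly determined. POU5F1, NANOG, DPPA4 and LIN28A spread less, by 0.46, 0.61, 0.21 and 0.28 in log2 fold change between the genotypes. LIN28B was higher at the adjusted p alone in HAR123-KO (0.21), cHAR123 (0.25) and mHAR123 (0.20).

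In hESCs, the comparison with hHAR123 asked which genes depended on HAR123 before differentiation, and none of the 10 genes was called in any edited genotype by edgeR or by DESeq2. At an unadjusted p under 0.05, 6 of the 10 differed in HAR123-KO (29.7% of all genes), 9 in cHAR123 (36.9%) and 8 in mHAR123 (38.5%). Of all genes tested, 1.18% were called in HAR123-KO, 0.850% in cHAR123 and 1.23% in mHAR123. The log2 fold changes of the 10 genes lay between -0.29 and 0.57. At the adjusted p alone, 4 genes differed in HAR123-KO (12.4% of all genes tested), 6 in cHAR123 (16.3%) and 7 in mHAR123 (19.2%). The 3 comparisons share the hHAR123 libraries, so a library of hHAR123 that stands apart enters each of them.

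ZFP42 had the largest difference in hESCs. It was at 203, 198 and 195 CPM in HAR123-KO, 193, 181 and 187 CPM in cHAR123 and 177, 184 and 183 CPM in mHAR123, above the 129 to 134 CPM of hHAR123 in every library. The log2 fold changes were 0.57 ± 0.029 in HAR123-KO (adjusted p = 1.35e-19), 0.48 ± 0.031 in cHAR123 and 0.42 ± 0.028 in mHAR123. L1TD1 was lower by less: its means were 796 ± 14.8 CPM in HAR123-KO, 736 ± 32.0 CPM in cHAR123 and 699 ± 10.3 CPM in mHAR123, beside 830.4 ± 11.01 CPM in hHAR123. Its log2 fold changes of -0.08 (adjusted p = 0.00733), -0.20 (5.48e-08) and -0.29 (2.25e-15) passed the adjusted p. UTF1 had a log2 fold change of 0.41 ± 0.068 in mHAR123 (adjusted p = 5.64e-06), where its libraries were at 16.0 to 17.4 CPM beside 11.2 to 12.7 CPM in hHAR123.

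The core factors differed little in hESCs. POU5F1 was at 1058 ± 6.05 CPM in HAR123-KO, 1099 ± 10.46 CPM in cHAR123 and 1079 ± 25.4 CPM in mHAR123, beside 1139 ± 13.4 CPM in hHAR123, log2 fold changes of -0.13, -0.08 and -0.12 that passed the adjusted p. NANOG passed only in mHAR123 (-0.20, adjusted p = 2.18e-07), with intervals of -0.13 to -0.02 in HAR123-KO and -0.16 to -0.04 in cHAR123. SALL4 passed in none, with intervals of the log2 fold change within -0.09 and 0.07. LIN28B was lower in all 3 edited genotypes (-0.12, -0.21 and -0.19). Between edited genotypes, no gene was called in cHAR123 against HAR123-KO (0.271% of all genes), mHAR123 against HAR123-KO (0.244%) or mHAR123 against cHAR123 (0.158%) by edgeR or DESeq2, while 7, 7 and 3 of the 10 had an unadjusted p under 0.05, beside 27.8%, 27.1% and 9.26% of all genes.

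**Figure D4:**
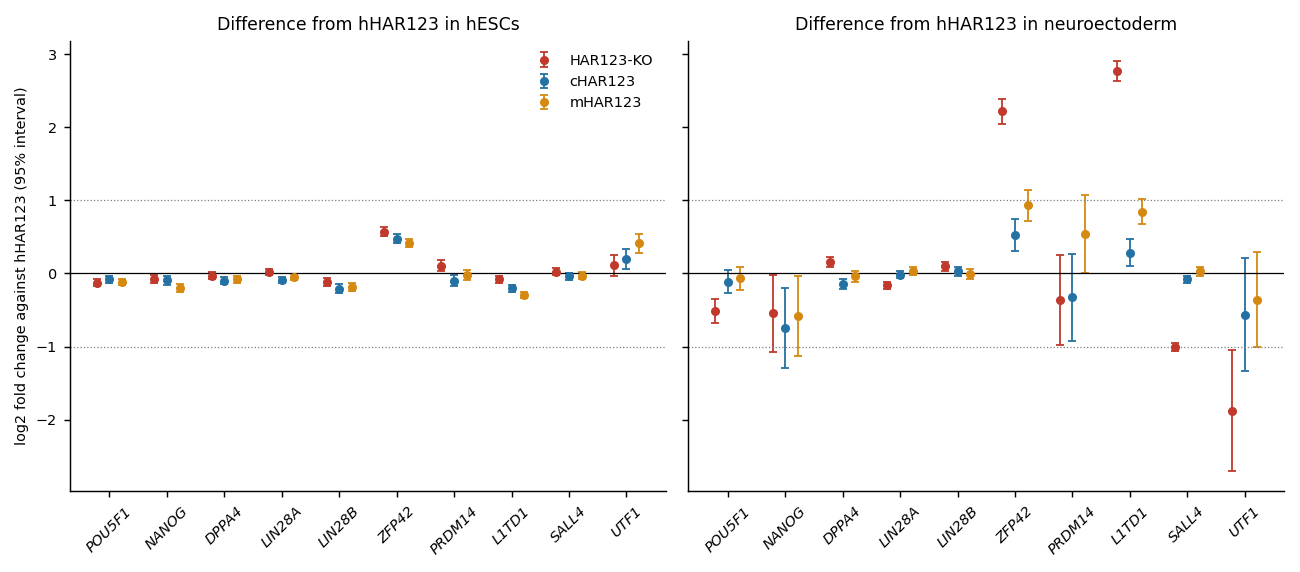
log2 fold change of each gene against hHAR123, with 95% intervals, in hESCs (left) and neuroectoderm (right), with dotted lines at the fold threshold. In hESCs all points lie within -0.29 and 0.57; in neuroectoderm HAR123-KO lies past the lines for ZFP42, L1TD1, SALL4 and UTF1, with SALL4 at -1.004.

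In neuroectoderm, the comparison of HAR123-KO with hHAR123 asked what loss of the enhancer changed after differentiation. L1TD1 and ZFP42 rose and SALL4 and UTF1 fell, 4 of the 10 genes, while 9.45% of all 21362 genes tested were called. At the adjusted p alone 7 of the 10 genes differed, beside 44.1% of all genes. The 10 genes had a median log2 fold change of -0.26, beside 0.00 over all genes.

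L1TD1 was at 9.99, 8.02 and 8.50 CPM in hHAR123 neuroectoderm and at 55.3, 61.5 and 56.9 CPM in HAR123-KO. The groups did not overlap, and the log2 fold change was 2.77 ± 0.068 (adjusted p = 7.39e-37), a 6.82-fold difference. ZFP42 was at 5.85, 5.25 and 5.04 CPM in hHAR123 and at 24.2, 25.3 and 22.8 CPM in HAR123-KO, again without overlap, and its log2 fold change was 2.22 ± 0.087 (adjusted p = 5.35e-28). The promoter stretches of these genes are those shown above without an octamer or SOX core. That of UTF1, which fell, had neither core as well, and a link between the cores and these differences was not tested. The residual levels were still low against hESCs of the same genotype, at 7.28% for L1TD1 and 12.1% for ZFP42 in HAR123-KO, compared with 1.06% and 4.09% in hHAR123.

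SALL4 was at 648, 656 and 666 CPM in hHAR123 neuroectoderm and at 326, 311 and 311 CPM in HAR123-KO. Every HAR123-KO library was below every hHAR123 library, and the log2 fold change of -1.004 ± 0.029 (adjusted p = 1.11e-33) lay at the fold threshold, which it missed without hHAR123 replicate 3 (-0.999), HAR123-KO replicate 2 (-0.99) or HAR123-KO replicate 3 (-0.99). UTF1 had 15, 20 and 17 counts in hHAR123 and 3, 5 and 6 counts in HAR123-KO. The counts did not overlap and the log2 fold change was -1.88 ± 0.42 (adjusted p = 0.000162), but with DESeq2 the adjusted p was 0.011. In CPM, SALL4 in HAR123-KO neuroectoderm thus stood at 90.2% of its hESC level (350.1 ± 7.03 CPM). The log2 fold change from hESCs was -0.35 on the TMM scale and -0.15 on the total count scale.

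The other 6 genes differed by less than the fold threshold in HAR123-KO neuroectoderm. POU5F1 was at 10.1, 10.2 and 10.95 CPM, below the 14.3 to 16.0 CPM of hHAR123, with a log2 fold change of -0.51 ± 0.082 (adjusted p = 5.64e-07). LIN28A was lower (1341 ± 15.3 beside 1555 ± 51.2 CPM, log2 fold change -0.16, adjusted p = 2.09e-07) and DPPA4 slightly higher (122 ± 2.03 beside 114 ± 2.85 CPM, 0.15, adjusted p = 0.000309). NANOG had a log2 fold change of -0.54 with an interval from -1.07 to -0.01 (adjusted p = 0.0858). PRDM14 had one of -0.37 with an interval from -0.98 to 0.25. LIN28B had one of 0.10 with an interval from 0.03 to 0.16 (adjusted p = 0.0112). The hHAR123 libraries lay above those of HAR123-KO for NANOG (1.14 to 1.49 beside 0.736 to 0.915 CPM) and for PRDM14 (0.809 to 0.950 beside 0.572 to 0.689 CPM). With 14 to 23 counts per library for PRDM14 and 18 to 35 for NANOG, the intervals of these genes are wide. The size of a difference is thus poorly determined at this depth.

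**Figure D5:**
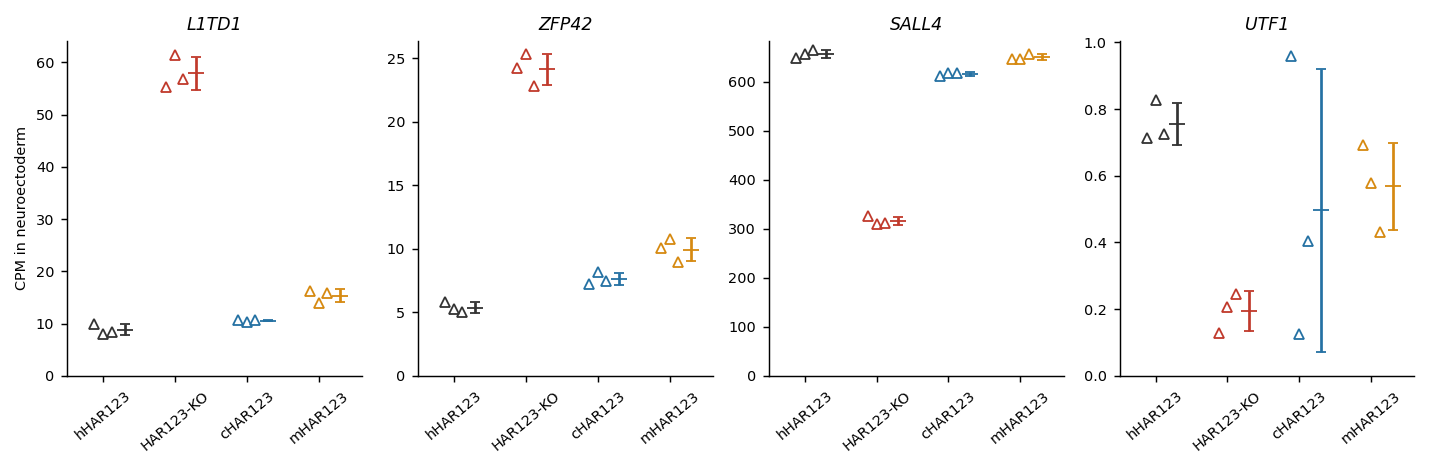
CPM of the 4 called genes in the 12 neuroectoderm libraries (triangles), with the mean and SD of 3 libraries beside them, on axes that start at 0. HAR123-KO lies above the other genotypes for L1TD1 and ZFP42 and below them for SALL4, and cHAR123 spreads from 0.127 to 0.961 CPM for UTF1.

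Markers of some other cell types moved with these genes in HAR123-KO neuroectoderm, where 4.92% of all genes rose and 4.52% fell. The 6 neural crest markers, FOXD3, PAX3, PAX7, SOX10, SNAI2 and TFAP2A, all rose, from a summed 105 to 112 CPM in hHAR123 to 1197 to 1208 CPM, and their sum was 38.3 to 45.5 CPM in hESCs. Of the 9 neuroectoderm markers tested, 6 fell and NR2F1 rose, and the sum was 608 to 620 CPM beside 1010 to 1016 CPM. The 6 germ cell markers summed to 129 to 134 CPM beside 15.0 to 15.6 CPM, through TFAP2C and KIT, while the defining genes NANOS3, DAZL and DDX4 stayed under 1 CPM. The 6 trophoblast and amnion markers summed to 2.89 to 4.16 CPM beside 1.45 to 1.57 CPM, with CDX2 at 0 in both groups. Of the mesoderm and endoderm markers, 1 each could be tested, and neither was called. In the replacement genotypes the neural crest sum was 237 to 247 CPM in cHAR123 and 261 to 264 CPM in mHAR123. The part of these cells in the levels of L1TD1, ZFP42, SALL4 and UTF1 was not tested.

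The replacement genotypes asked whether the chimpanzee or mouse sequence acted as the human one does, and in neuroectoderm none of the 10 genes was called against hHAR123 in cHAR123 (0.978% of all genes) or mHAR123 (1.03%), by edgeR or by DESeq2. At an unadjusted p under 0.05, 5 of the 10 differed in cHAR123 (29.0% of all genes) and 3 in mHAR123 (33.8%). At the adjusted p alone 2 genes differed in cHAR123 (9.89% of all genes) and 2 in mHAR123 (14.0%). ZFP42 was at 7.24, 8.20 and 7.49 CPM in cHAR123 and at 10.0, 10.8 and 8.999 CPM in mHAR123. Every one of these libraries was above hHAR123 and below HAR123-KO, with log2 fold changes against hHAR123 of 0.52 ± 0.11 (adjusted p = 0.000521) and 0.93 ± 0.11 (1.07e-08). L1TD1 was at 10.7, 10.4 and 10.7 CPM in cHAR123 and 16.2, 14.0 and 15.8 CPM in mHAR123, in the same order of genotypes without overlap. Its log2 fold change passed the adjusted p in mHAR123 (0.85 ± 0.090, 1.92e-09) and not in cHAR123 (0.28, interval 0.10 to 0.47, adjusted p = 0.0297). DPPA4 was the other gene in cHAR123, with 102 ± 0.167 CPM and a log2 fold change of -0.15 (adjusted p = 0.00244).

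SALL4 in the replacement genotypes was near hHAR123, at 616 ± 3.601 CPM in cHAR123 and 649.7 ± 6.47 CPM in mHAR123, with intervals of the log2 fold change from -0.13 to -0.03 and from -0.03 to 0.08. The cHAR123 libraries (612 to 618 CPM) lay below those of hHAR123 without passing the adjusted p (0.0241), and the mHAR123 libraries overlapped with them. POU5F1 had intervals from -0.27 to 0.05 and from -0.23 to 0.09, and the intervals of LIN28A and LIN28B lay within -0.07 and 0.09. NANOG had 16, 22 and 15 counts in cHAR123 and 26, 13 and 21 in mHAR123, with log2 fold changes of -0.74 (interval -1.29 to -0.20, adjusted p = 0.0584) and -0.59 (-1.14 to -0.04, adjusted p = 0.134). PRDM14 had 37, 26 and 26 counts in mHAR123, above the 17 to 23 of hHAR123, with an interval from 0.01 to 1.07 (adjusted p = 0.157). UTF1 spread widely in cHAR123, with 24, 3 and 9 counts, and its intervals reached from -1.34 to 0.21 in cHAR123 and from -1.01 to 0.29 in mHAR123. Between the replacements, no gene was called in mHAR123 against cHAR123 (0.261% of all genes) by edgeR or DESeq2, 6 had an unadjusted p under 0.05 (19.1% of all genes) and 3 differed at the adjusted p alone (4.20% of all genes), each higher in the libraries labelled mHAR123: L1TD1 by 0.56 ± 0.080 (adjusted p = 1.18e-06), ZFP42 by 0.40 ± 0.095 (0.0034) and SALL4 by 0.10 ± 0.022 (0.00109), on log2 scale.

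Set against HAR123-KO, both replacements had less L1TD1 and ZFP42. In cHAR123 2 of 9 tested genes were called (7.61% of all genes), L1TD1 with a log2 fold change of -2.46 ± 0.059 and ZFP42 with -1.67 ± 0.077, and UTF1 was too low to be tested. SALL4 was higher in cHAR123 by 0.95 ± 0.021, just inside the fold threshold. In mHAR123 4 of 10 were called (7.33% of all genes): L1TD1 at -1.90 ± 0.058, ZFP42 at -1.26 ± 0.074, SALL4 at 1.06 ± 0.026 and UTF1 at 1.54 ± 0.44. The call of UTF1 (10 to 18 beside 3 to 6 counts) was lost with DESeq2 (adjusted p = 0.0674) and without HAR123-KO replicate 1 (0.0304) or 2 (0.014) or mHAR123 replicate 1 (0.0306) or 2 (0.013). At the adjusted p alone, POU5F1 was higher than in HAR123-KO in cHAR123 (0.42, adjusted p = 1.86e-05) and mHAR123 (0.47, 8.33e-06). LIN28A was higher (0.17 and 0.22) and DPPA4 lower (-0.27 and -0.16). PRDM14 was higher in mHAR123 alone (0.93, adjusted p = 0.00628), with 26 to 37 beside 14 to 16 counts per library. NANOG and LIN28B passed in neither. Of all genes, 3973 were higher and 4298 lower at the adjusted p alone in cHAR123 (21189 tested), and 3753 and 3963 in mHAR123 (21138). These comparisons share the HAR123-KO libraries with the one against hHAR123.

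An interaction term of genotype and stage tested whether a genotype had another effect in neuroectoderm than in hESCs. For HAR123-KO 4 of the 10 genes were called, beside 7.87% of all genes. The effect was larger in neuroectoderm by 2.85 ± 0.063 for L1TD1 (adjusted p = 1.52e-37) and by 1.64 ± 0.083 for ZFP42 (1.11e-22), and lower by -1.03 ± 0.038 for SALL4 (2.23e-28) and -1.997 ± 0.39 for UTF1 (3.37e-05), all as differences of log2 fold changes. L1TD1 was slightly lower than hHAR123 in HAR123-KO hESCs and higher in HAR123-KO neuroectoderm, while ZFP42 was higher at both stages. For cHAR123 no gene was called by edgeR or DESeq2 (0.797% of all genes), with 5 of the 10 at an unadjusted p under 0.05 (27.5% of all genes), and for mHAR123 L1TD1 alone was called (1.16 ± 0.074, adjusted p = 5.82e-17, beside 0.967% of all genes). If the neuroectoderm names of cHAR123 and mHAR123 are exchanged, the stage comparisons and interactions of these 2 genotypes set the neuroectoderm of one against the hESCs of the other. Without cHAR123 neuroectoderm replicate 1, which holds 24 of the 36 UTF1 counts of its group, UTF1 was called for cHAR123 (-1.69, adjusted p = 0.00525). The interaction of PRDM14 did not pass the adjusted p in HAR123-KO (0.171), cHAR123 (0.665) or mHAR123 (0.0702).

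Other genes of the pluripotent state gave the setting of these changes. Of 25 primed pluripotency genes, those typical of conventional hESCs, 21 fell and 2 rose over differentiation of hHAR123 cells, with a median log2 fold change of -3.25, while 21.2% of all genes fell and 24.6% rose. The ligand NODAL went from a mean of 7.66 CPM to 0 counts in all 3 libraries, at least 58.2-fold lower at a floor of 3 counts per library. TDGF1, a co-receptor of NODAL, went from 378 to 0.769 CPM (log2 fold change -9.24), and the ligand GDF3 from 6.01 CPM to 0 to 3 counts per library. OTX2 (34.9 to 509.9 CPM, 3.58) and SOX2 (206 to 542 CPM, 1.10), factors that also act in the early neural plate, rose. In HAR123-KO against hHAR123 neuroectoderm, 2 of 21 tested primed genes rose, among them VRTN (1.16), and 2 fell, SOX2 (-1.73, from 542 to 158 CPM) and SFRP2 (-1.17), with a median of -0.41, while 4.92% of all genes rose and 4.52% fell. SOX2, the partner of POU5F1 in the circuit and a gene of the neural plate, therefore differed in the direction of SALL4 and opposite to L1TD1 and ZFP42.

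Of 17 genes typical of naive pluripotency, 10 were tested over differentiation of hHAR123 cells. In this list 6 fell, among them TFCP2L1 (log2 fold change -5.62), NLRP7 (-2.31) and ESRRB (-1.13), and KLF4 rose (1.01), beside the 21.2% and 24.6% of all genes. Their summed level was low in hESCs, 32.4 to 44.5 CPM in the libraries of the 4 genotypes. In HAR123-KO against hHAR123 neuroectoderm, 2 of 7 tested genes rose, TFAP2C (4.38, from 4.35 to 87.4 CPM) and SUSD2 (1.20, from 4.57 to 10.1 CPM), beside 4.92% of all genes. TFAP2C, which is also in the germ cell list and is also active in neural crest and surface ectoderm, made up most of the difference in the naive sum, which was 104 to 105.5 CPM in HAR123-KO beside 17.2 to 20.2 CPM in hHAR123.

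Of 16 genes of the LIN28 and let-7 pathway, 5 fell and 1 rose over differentiation of hHAR123 cells, with a median log2 fold change of -0.30. Of all genes tested, 21.2% fell and 24.6% rose, so these counts do not set the list apart. The let-7 targets MYCN (-3.74), MYC (-3.43) and HMGA1 (-1.51) were among those that fell, and TUT4, the enzyme that uridylates let-7 precursors held by LIN28A, rose (1.54, from 62.6 to 223 CPM). In HAR123-KO against hHAR123 neuroectoderm, 2 rose, MYCN (2.74, from 11.7 to 75.8 CPM) and HMGA2 (1.44, from 92.5 to 242 CPM), and MYC fell (-1.28), beside 4.92% and 4.52% of all genes, while LIN28A and LIN28B stayed within 0.16 of hHAR123 in log2 fold change.

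The genes whose pattern was most like each of 9 of the 10 were sought among 17469 genes by the Pearson correlation of log2 CPM over 24 libraries. These values describe libraries that share stage, genotype and clone. POU5F1 was closest to ZSCAN10 (r = 0.999), NANOG to its copy NANOGP8 (0.999), DPPA4 to SEPHS1 (0.999), PRDM14 to SPINT1 (0.998), L1TD1 to MTHFD1 (0.998) and ZFP42 to SPTBN1 (0.997). SALL4 was closest to CECR2 (0.997), LIN28A to PRKCQ (0.991) and UTF1 to ADM2 (0.990). The first place could be narrow, as PODXL also reached 0.999 for POU5F1, and it depended on the measure. By Spearman correlation another gene came first for each of the 9 except NANOG, and over neuroectoderm libraries alone for each of them. Within the 12 neuroectoderm libraries, L1TD1 and ZFP42 followed each other (r = 0.981), LIN28A followed SALL4 (0.965), and L1TD1 ran opposite to SALL4 (-0.956), differences that lie mainly between HAR123-KO and the other genotypes.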

How the data were processed

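RNA was measured in 24 libraries, 3 for each of 4 genotypes and 2 stages. The authors removed ribosomal RNA, made directional libraries, sequenced paired-end reads, aligned them with STAR 2.5.2b to GRCh38 (Ensembl 106) and counted reads over exons per gene with featureCounts; the deposited values are these raw counts, with no normalization. Whether strand was used in counting is not given in the sources used here. POU5F1 shares 248 exonic bases with TCF19 and LIN28B 181 with LIN28B-AS1, each on the opposite strand, and genes with copies are uncertain. Of 61552 genes, ANK2, broken over 3 lines, was left out. Replicates differed by more than sampling noise (chi-square per degree of freedom 1.404 to 4.972).

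Counts were fitted per comparison in edgeR 4.0.16 (R 4.3.3) with filterByExpr, TMM scaling and the quasi-likelihood F test, adjusted by Benjamini-Hochberg over all genes tested. Standard errors were obtained from each log2 fold change and its F statistic, and 95% intervals from these by a normal approximation. The intervals can be narrower than the F test implies, as for PRDM14 in mHAR123 against hHAR123 neuroectoderm (interval 0.01 to 1.07, unadjusted p = 0.0545). The thresholds follow the methods of the study, and each comparison had a fit of its own; the tool of the study, DESeq2 (1.42.0 here), was an alternative, with other scalings, no filter, all libraries in one fit, a replicate block, other thresholds and each library left out. The fit was tested on simulated counts. Tests are unpaired.

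All 10 genes are named in each comparison, and of the other pathway lists the 3 largest changes each way among called genes averaging 1 CPM or more; a gene of the primed list and the gene most like LIN28B are not reported here. Members and lists were chosen with earlier results of these data known. ALPPL2 was matched by its current symbol, ALPG. Preparation used Python 3.11.15. Of the 10 genes, 6 matched RefSeq promoter entries.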

Additional observations from a re-analysis of the deposited data

Results flagged for a closer look

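The genotype effect differed between the stages past the threshold for 5 results, each tested as an interaction in edgeR's quasi-likelihood fit. In HAR123-KO the difference of log2 fold changes, neuroectoderm minus hESCs, was 2.85 for L1TD1, 1.64 for ZFP42, -1.03 for SALL4 and -1.997 for UTF1. In mHAR123 it was 1.16 for L1TD1, a value that rests on the column labels, since the neuroectoderm names of cHAR123 and mHAR123 may be exchanged. In neuroectoderm, the 3 libraries of the edited genotype did not overlap with the 3 of hHAR123 in any of these.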

How the results depend on the processing

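Of 284 counts of called genes under alternatives, 269 stayed within 1.5 times the reported count. With no fold threshold the count in hESCs was 4, 6 and 7 for HAR123-KO, cHAR123 and mHAR123 against hHAR123 and 3 and 4 for cHAR123 and mHAR123 against HAR123-KO; in neuroectoderm it was 7, 2 and 2 against hHAR123, 6 and 8 against HAR123-KO and 3 for mHAR123 against cHAR123; for the interactions it was 8, 2 and 3. These counts are larger because the fold threshold was dropped. Against HAR123-KO in hESCs, 788 of all genes were then higher and 884 lower in cHAR123 (20659 tested), and 641 and 804 in mHAR123 (20926). In neuroectoderm these were 3973 and 4298 (21189) and 3753 and 3963 (21138). For the interactions they were 4292 and 3215 for HAR123-KO (23113), 1314 and 717 for cHAR123 (23329) and 2146 and 889 for mHAR123 (23681). The shares for the other comparisons are given above. Leaving out each library gave 0 to 1 called genes for the cHAR123 interaction. Of 2448 log2 fold changes of single genes under alternatives, 9 lost and 2 gained the call and none reversed; they concern SALL4 and UTF1 in HAR123-KO, UTF1 and PRDM14 in mHAR123 against HAR123-KO (PRDM14 was called without mHAR123 neuroectoderm replicate 2, at 1.01) and UTF1 in the cHAR123 interaction. Scaling by total counts, chosen after seeing the data, changed no call. The replicate block left the count of called genes at 4 in HAR123-KO neuroectoderm and changed it in none of 19 comparisons, and it moved the calls over all genes by a ratio of 0.784 to 1.05; 7 adjusted p of single genes in hESCs crossed 0.01 under it, 6 of them upward, and the cause was not tested. Replicate numbers share only a number: none of 48 correlations of deviations from the group means, -0.0238 to 0.0369, was over 0.1. Counts under 40 per library limit NANOG, PRDM14 and UTF1 in neuroectoderm.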
